A study of Homo sapiens with 18 samples.

Results

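LNCaP cells given the androgen dihydrotestosterone (DHT) together with VPC-13789 were compared with cells given DHT together with enzalutamide. The comparison rests on 6 of the 18 samples of the series, 3 cultures for each compound, chosen by their labels. Both groups shared the cell line, a period of 48 h in charcoal-stripped serum, which is poor in steroids, 10 nM DHT and a treatment time of 6 h before RNA isolation. Enzalutamide was given at 1.5 µM and VPC-13789 at 3 µM, each dose taken from a published IC90, so that compound and concentration cannot be told apart. The other 4 groups, also of 3 cultures each, received vehicle (ethanol plus DMSO), DHT plus DMSO, enzalutamide without DHT or VPC-13789 without DHT; doses in the arms without DHT are not stated separately. LNCaP is a single established human prostate cancer line, and the replicates are cultures of that line, called biological in the labels, so p-values measure the spread between cultures and not between patients.

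The androgen receptor is a transcription factor that binds testosterone or DHT, moves to the nucleus and acts on genes through DNA elements that the glucocorticoid receptor can also use. In luminal prostate cells it raises genes such as the kallikreins KLK2 and KLK3, the protease gene TMPRSS2 and the co-chaperone gene FKBP5, and it represses others. Enzalutamide is a clinical antagonist that occupies the hormone-binding pocket of the receptor. VPC-13789 is known here by its code only; the series title names another code, VPC-13822, and a site on the receptor called binding function-3, and how the compounds relate is not stated.

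The values came from the authors' DESeq2 comparisons of polyadenylated RNA, which give for each gene an average normalized count over all 18 samples, a log2 fold change and its standard error (SE). The difference between the compounds is the log2 change with VPC-13789 plus DHT minus that with enzalutamide plus DHT, so the DHT-only group used in both drops out. A positive difference means a higher level with VPC-13789. Group levels are normalized counts recovered from the averages and fold changes, with SE on the log2 scale for 3 cultures; no values per sample were analysed here, and depth per library is unknown. Of 27574 genes, 10819 averaged at least 100 normalized counts, and for these the difference had a median SE of 0.27. All 12 luminal prostate markers checked averaged at least 100. Markers of stromal, basal, blood, endothelial and neuroendocrine cells had a row for 15 of 22, of which 6 averaged at most 1, among them DCN, PTPRC, CD68, LYZ and CHGA, while COL1A1, VIM, VWF and ENO2 averaged at least 100. The summed level of those 15 genes lay between 2501 and 2648 in 5 groups and was 3714 with VPC-13789 plus DHT. The summed level of all genes was also highest in that group, at 2.48e+07 against 1.97e+07 to 2.10e+07 in the other 5. Recovered levels were not rescaled for this. The part of either sum in the results below was not tested.

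The 3 genes that differed between the compounds after adjustment over all genes were SGK1, CHST2 and BAMBI. SGK1 encodes a serum- and glucocorticoid-regulated kinase and CHST2 a sulfotransferase that acts on N-acetylglucosamine, and both were higher with VPC-13789. BAMBI, a pseudoreceptor that dampens TGF-β and BMP signals, was lower. In the GENCODE annotation on GRCh38 the genes span bases 134169246 to 134318112 on the minus strand of chromosome 6 (SGK1), 143119331 to 143124014 on the plus strand of chromosome 3 (CHST2) and 28677342 to 28682939 on the plus strand of chromosome 10 (BAMBI). Because these genes carry the finding, the 250 bases before their RefSeq start are shown, from the GRCh38.p14 build, 5′ to 3′ on the gene's strand. The windows are chr6:134318113-134318362 on the minus strand for SGK1, chr3:143119521-143119770 on the plus strand for CHST2 and chr10:28677271-28677520 on the plus strand for BAMBI. Genes may have further starts, and GENCODE places the start of CHST2 and of BAMBI further upstream than RefSeq. The SGK1 window lies directly before the upstream end of its long span, so any start further inside that span is not covered. Capitals mark the GC box GGGCGG on either strand.
SGK1: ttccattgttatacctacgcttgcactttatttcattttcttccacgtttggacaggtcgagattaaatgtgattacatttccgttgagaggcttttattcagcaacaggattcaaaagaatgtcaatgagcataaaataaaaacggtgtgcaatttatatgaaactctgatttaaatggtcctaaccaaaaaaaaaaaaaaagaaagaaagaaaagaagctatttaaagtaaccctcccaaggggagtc
CHST2: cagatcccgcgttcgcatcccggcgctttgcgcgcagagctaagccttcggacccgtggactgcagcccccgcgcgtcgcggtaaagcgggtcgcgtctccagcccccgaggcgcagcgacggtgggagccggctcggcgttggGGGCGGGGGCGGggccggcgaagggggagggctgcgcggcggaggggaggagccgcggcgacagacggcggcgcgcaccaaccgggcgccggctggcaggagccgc
BAMBI: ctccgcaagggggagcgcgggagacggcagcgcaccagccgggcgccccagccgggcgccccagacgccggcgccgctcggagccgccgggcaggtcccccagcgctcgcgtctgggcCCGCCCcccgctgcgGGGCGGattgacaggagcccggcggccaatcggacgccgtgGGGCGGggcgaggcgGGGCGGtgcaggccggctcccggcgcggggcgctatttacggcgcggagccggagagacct

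The windows held 0 GC boxes for SGK1, 2 for CHST2 and 4 for BAMBI, and their GC content was 33.6%, 78.0% and 81.2%. Over 27305 RefSeq windows of that length, 42.3% held a GC box. None of the 3 windows held the androgen response palindrome, AGAACA followed after 3 bases by TGTTCT, or its AGAACA half-site on either strand, a half-site being part of any such palindrome; the half-site occurred in 12.4% and the palindrome in 1 of the 27305 windows. A match or its absence describes these letters only.

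SGK1 was the gene with the smallest p. Its recovered level was 34.7 normalized counts with vehicle and 567 with DHT. With DHT present it stood at 82.1 under enzalutamide (log2 SE 0.17) and at 226 under VPC-13789 (log2 SE 0.15), and without DHT at 39.0 and 30.9. The VPC-13789 level thus lay between the enzalutamide and the DHT level, while the groups without DHT were close to vehicle. The difference was 1.46 (SE 0.22, 95% interval 1.03 to 1.90), or 2.76-fold, with an adjusted p of 1.41e-06 by the Wald test with Benjamini-Hochberg adjustment. Of the rise that DHT gave over vehicle, 8.91% was left with enzalutamide and 36.0% with VPC-13789; such shares are ratios of recovered means and carry no interval here. Without DHT the same contrast was -0.33 (SE 0.27, unadjusted p = 0.212), and the contrast with DHT exceeded it by 1.80 (SE 0.35, adjusted p = 0.00704, Wald test over all genes).

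CHST2 was a gene of low level, averaging 27.8 normalized counts. It stood at 17.1 with vehicle, 56.9 with DHT, 14.3 with enzalutamide plus DHT and 40.5 with VPC-13789 plus DHT, and without DHT at 17.6 and 20.6 under the respective compounds. Enzalutamide plus DHT thus lay near vehicle (log2 SE 0.26 and 0.25) and VPC-13789 plus DHT nearer to DHT. The difference was 1.50 (SE 0.30, 95% interval 0.91 to 2.10), or 2.84-fold (Wald test, adjusted p = 0.00634). Without DHT it was 0.23 (SE 0.34).

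BAMBI, which androgen represses in these cells, was lower with VPC-13789. Its level was 871 with vehicle and 421 with DHT, then 788 with enzalutamide plus DHT and 564 with VPC-13789 plus DHT. The level under VPC-13789 therefore stayed nearer to that of DHT alone. The difference was -0.48 (SE 0.08, 95% interval -0.65 to -0.32), which is 1.40-fold lower (Wald test, adjusted p = 0.000122). Of the DHT change counted from vehicle, 18.5% was left with enzalutamide and 68.2% with VPC-13789. Both shares start from the vehicle level, so they also hold any difference between the compounds that was present without DHT. Without DHT the levels were 1062 and 902, a difference of -0.24 (SE 0.08) with an unadjusted p of 0.00182 and an adjusted p of 1 in the Wald test. The contrasts with and without DHT differed by -0.25 (SE 0.11, adjusted p = 0.833).

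**Figure D1:**
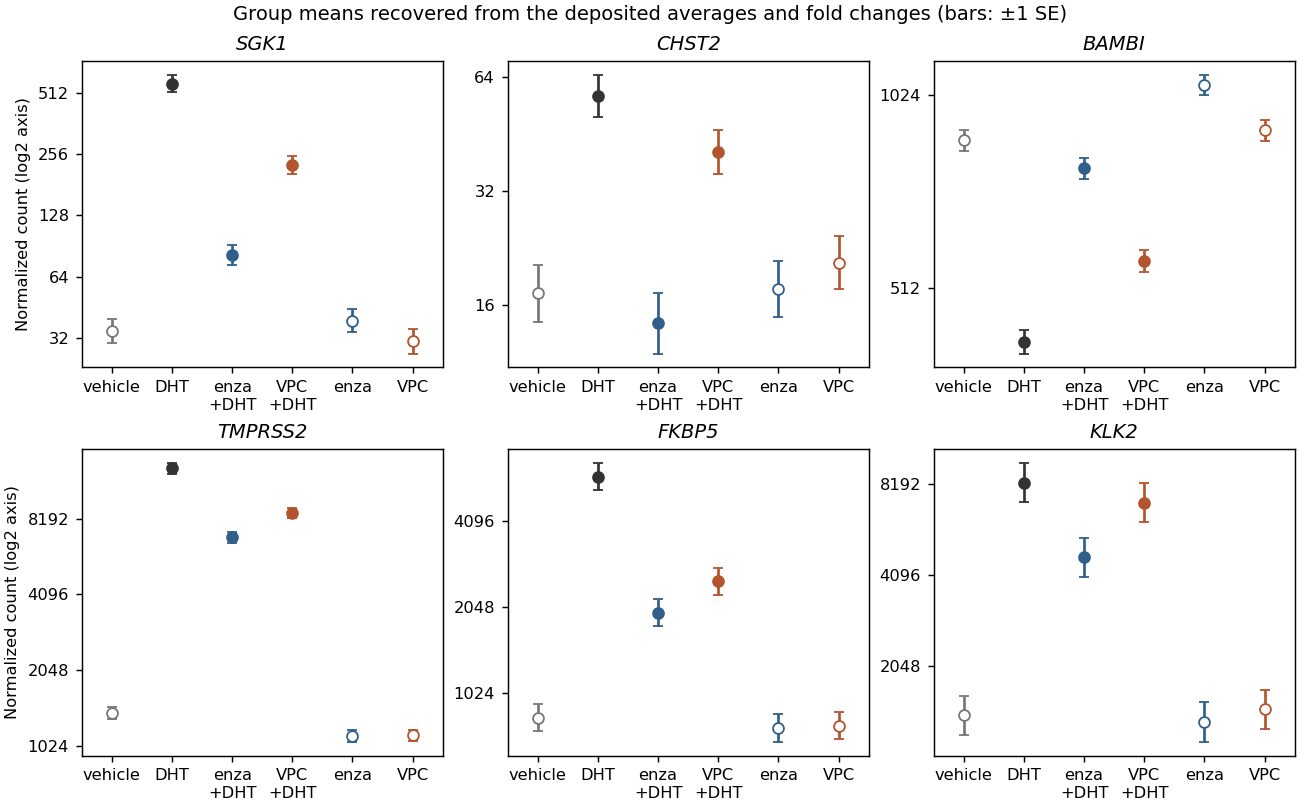
Recovered group levels (normalized counts, log2 axis) of SGK1, CHST2, BAMBI, TMPRSS2, FKBP5 and KLK2 in the 6 groups of 3 cultures; points are group means, bars ±1 SE, filled points are groups given DHT and open points groups without it. SGK1 stood at 82.1 with enzalutamide plus DHT and at 226 with VPC-13789 plus DHT, and BAMBI at 788 and 564.

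These 3 were 0.0109% of the 27574 genes tested, 2 higher (0.00725%) and 1 lower (0.00363%). An unadjusted p under 0.05 was reached by 1515 genes (5.49%), 629 of them higher (2.28%) and 886 lower (3.21%). By sign alone, 13447 of all genes lay above 0 and 13972 below. Without DHT the contrast called 0 genes (0%) in the Wald test, with 252 at an unadjusted p under 0.05 (0.914%). The test of the contrast with DHT against that without it called SGK1 alone (0.00363%), with 450 genes at an unadjusted p under 0.05 (1.63%). Among genes averaging at least 100 the differences with DHT had quartiles of -0.45 and 0.37 and those without DHT of -0.03 and 0.05. Divided by their SE, these differences had a standard deviation of 1.47 with DHT and 0.36 without it. The SE rests on a spread fitted over all 18 samples and holds when the groups vary equally. The 0 calls without DHT therefore do not show that the compounds acted alike there. All 3 calls rested on the shared DHT group dropping out of the SE: with the SE taken as if no samples were shared, which overstates it, 0 genes were called (133 at an unadjusted p under 0.05), and the adjusted p was 0.0941 for SGK1, 0.950 for CHST2 and 0.658 for BAMBI.

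The differences were then read against the DHT response itself, which comes from the vehicle and DHT groups and so from libraries that the compound difference does not use. In the authors' deposited table DHT called 312 genes higher (1.13%) and 83 lower (0.301%). Of the 37 genes that DHT raised by a log2 change of 3 or more, 36 were higher with VPC-13789 than with enzalutamide, with a median difference of 0.74. In the stratum from 2 to 3, 33 of 43 were higher (median 0.32), from 1 to 2, 67 of 98 (median 0.14), and under 1, 99 of 134 (median 0.08). Of the 83 genes that DHT lowered, 69 were lower with VPC-13789 (median -0.18). The 27179 genes that DHT did not call had a median of -0.02, and all genes one of -0.01. No test was made of the strata.

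An unadjusted p under 0.05 was reached in the higher direction by 14 of the 37 genes, 14 of 43, 29 of 98 and 21 of 134 in falling order of the DHT response, against 2.28% of all genes; in the lower direction it was reached by 0, 0, 1 and 1. Among genes that DHT lowered, 18 of 83 reached it lower and 1 higher. Without DHT the medians of the same strata were 0.03, -0.01, 0.03, 0.00 and -0.02. After centring by transcript GC content, described below, they were 0.84, 0.34, 0.19, 0.07 and -0.24. Most genes in the top stratum had few reads: 19 of 37 averaged at least 10 normalized counts, with a median of 0.56, and only SGK1, TMPRSS2 and CHRNA2 averaged at least 100. The stratum also holds near-identical copies, such as ORM1 and ORM2 or TRIM49D1 and TRIM49D2, whose reads the counting could have split.

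**Figure D2:**
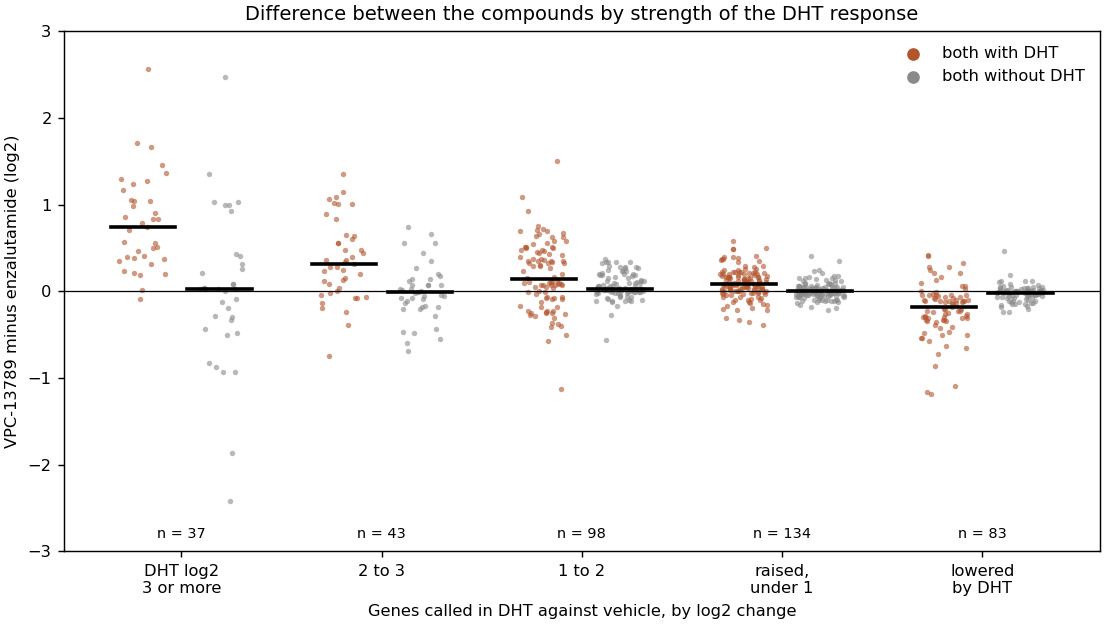
Difference between VPC-13789 and enzalutamide (log2, y axis) for genes called in DHT against vehicle, grouped by their DHT log2 change (x axis); points are genes, with both compounds given with DHT in brown and without DHT in grey, and black lines are medians. With DHT the medians were 0.74, 0.32, 0.14 and 0.08 from the strongest to the weakest rise and -0.18 for lowered genes, and without DHT they lay between -0.02 and 0.03.

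Well-known androgen receptor targets lay above 0 in most cases, but of a panel of 12 target genes only SGK1 and BAMBI passed the adjusted threshold. TMPRSS2 stood at 1383 normalized counts with vehicle, 12970 with DHT, 6908 with enzalutamide plus DHT and 8623 with VPC-13789 plus DHT. Its difference was 0.32 (SE 0.10, 95% interval 0.12 to 0.52, Wald test, adjusted p = 0.510). KLK3, which encodes prostate-specific antigen, was recovered at 41849 with DHT, 30792 with enzalutamide plus DHT and 41846 with VPC-13789 plus DHT, and its difference of 0.44 had a 95% interval from -0.11 to 1.00. KLK2 differed by 0.60 (SE 0.30). In terms of the DHT rise left, TMPRSS2 kept 47.7% with enzalutamide and 62.5% with VPC-13789, KLK2 47.7% and 83.0%, and KLK3 57.4% and 100%.

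PMEPA1, which restrains the TGF-β pathway, differed by 0.48 (SE 0.13, 95% interval 0.22 to 0.74, Wald test, adjusted p = 0.294), with 54.6% and 82.4% of its DHT rise left. SLC45A3, a prostate membrane transporter gene, differed by 0.56 (SE 0.27), NDRG1, a stress- and androgen-responsive gene, by 0.58 (SE 0.24), and CHRNA2, a nicotinic receptor subunit gene, by 0.91 (SE 0.36). C1orf116, a gene known for its androgen regulation, differed by 0.63 (SE 0.22). STEAP4, a metalloreductase gene averaging 11.1 normalized counts, differed by 1.29 (SE 0.65), and its recovered levels are imprecise. Other strong DHT targets gave small values. The transcription factor gene MAF differed by 0.08 (95% interval -0.66 to 0.82) and the GTPase gene RHOU by -0.07 (-0.97 to 0.82). MAF had 24.8% of its DHT rise left with enzalutamide and 27.1% with VPC-13789, and RHOU 29.7% and 27.0%. The intervals of MAF and RHOU include differences as large as that of PMEPA1 in either direction. Most of these target values were smaller after GC centring, at 0.11 for TMPRSS2, 0.16 for KLK3, 0.40 for KLK2, 0.20 for PMEPA1, 0.14 for SLC45A3, 0.38 for NDRG1, 0.49 for CHRNA2 and 0.48 for C1orf116, while STEAP4 was at 2.00.

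In the list of the androgen receptor with its chaperones, pioneer factors and coregulators, 10 of 24 lay above 0, with a median of -0.04, and 0 were called, 0 having an unadjusted p under 0.05. The coactivator genes NCOA1 and NCOA2 had differences of -0.64 (SE 0.36) and -0.92 (SE 0.54), or -0.30 and -0.59 after GC centring. With that centring 9 of 24 in the list lay above 0, with a median of -0.15. Then 1 member was called higher and 1 lower, against 1.70% and 0.986% of all genes with a GC value.

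Among genes that both the androgen and the glucocorticoid receptor are known to act on, 16 of 18 lay above 0, with a median of 0.34, against -0.01 for all genes; after GC centring 11 of 18 lay above 0, with a median of 0.22. SGK1 was the 1 called, and 6 had an unadjusted p under 0.05, all higher, against 2.28% of all genes in that direction. NFKBIA, the inhibitor of NF-κB, stood at 672 with vehicle, 1354 with DHT, 803 with enzalutamide plus DHT and 1137 with VPC-13789 plus DHT. Its difference was 0.50 (SE 0.12, 95% interval 0.27 to 0.73, Wald test, adjusted p = 0.0814), and 19.2% and 68.2% of its DHT rise were left; after GC centring the difference was 0.22. CRISPLD2, a secreted protein gene, differed by 0.46 (SE 0.16) and the zinc finger repressor gene ZBTB16 by 0.33 (SE 0.09). FKBP5 stood at 1956 with enzalutamide plus DHT and 2514 with VPC-13789 plus DHT, against 5853 with DHT and 839 with vehicle. It differed by 0.36 (SE 0.22, 95% interval -0.07 to 0.80), with 22.3% and 33.4% of its rise left.

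Genes known to be repressed by androgen were on the other side: 18 of 19 measured members lay below 0, with a median of -0.47. BAMBI was the 1 called, and 3 had an unadjusted p under 0.05, all lower, against 3.21% of all genes in that direction. SDC4, a heparan sulfate proteoglycan of the cell surface, stood at 1100 with vehicle, 580 with DHT, 797 with enzalutamide plus DHT and 635 with VPC-13789 plus DHT. Its difference was -0.33 (SE 0.09, Wald test, adjusted p = 0.294). Without DHT the SDC4 contrast was also below 0, at -0.18 (SE 0.08, Wald test, unadjusted p = 0.0338). DEPTOR, which encodes an inhibitor of the mTOR kinase, differed by -0.47 (SE 0.23). After GC centring 14 of 19 lay below 0, with a median of -0.27.

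Other androgen lists were less one-sided, as were the heparan sulfate and immediate early lists. Of 8 androgen-driven partners of ETS fusions 6 lay above 0 (median 0.52, 0.16 after GC centring), including HERPUD1, an endoplasmic reticulum stress gene, at 0.58 (SE 0.19). The androgen receptor activity score had 12 of 23 above 0 (median 0.08), and 17 of 23 after GC centring (median 0.16). Of its members, 6 had an unadjusted p under 0.05 higher and 1 lower, against 2.28% and 3.21% of all genes. The hallmark-type androgen response list had 39 of 99 above 0 and a median of -0.23, but after GC centring 68 of 99 were above 0 and the median was 0.12. Of 25 genes for heparan sulfate proteoglycans and carbohydrate sulfotransferases 17 lay above 0 (median 0.17, -0.07 after GC centring). HS3ST1, a heparan sulfate sulfotransferase, differed by 0.40 (SE 0.13). Immediate early genes, which answer growth signals within minutes to hours, had 17 of 22 above 0, with a median of 0.20, but 10 of 22 and a median of -0.03 after GC centring. The AP-1 subunit gene FOSL2 stood at 1076 with vehicle, 1754 with DHT, 1052 with enzalutamide plus DHT and 1388 with VPC-13789 plus DHT, a difference of 0.40 (SE 0.09, Wald test, adjusted p = 0.0814), or 0.12 after GC centring. The nuclear receptor gene NR4A1 differed by 0.66 (SE 0.29).

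Some cholesterol genes had differences on the same side with and without DHT, though none was called in either. INSIG1, which holds the sterol-sensing machinery in the endoplasmic reticulum and is itself a sterol-regulated target, stood at 2015 with vehicle, 1980 with DHT, 1804 with enzalutamide plus DHT and 945 with VPC-13789 plus DHT. Without DHT it stood at 1897 with enzalutamide and 1120 with VPC-13789. Both VPC-13789 groups thus lay below the other 4. The difference was -0.93 (SE 0.21, 95% interval -1.35 to -0.51, Wald test, adjusted p = 0.0793) with DHT and -0.76 (SE 0.21, unadjusted p = 0.000367, adjusted p = 1) without it. The contrasts with and without DHT differed by -0.17 (SE 0.30).

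In the list of cholesterol synthesis and uptake genes 15 of 28 lay below 0 with DHT (median -0.07) and 0 were called. Of the 28, 8 had an unadjusted p under 0.05, all lower, against 3.21% of all genes in that direction. Without DHT 25 of 28 lay below 0, with a median of -0.15, where 12275 of all 27574 genes did. The squalene epoxidase gene SQLE differed by -0.67 (SE 0.22) with DHT and -0.39 without it, and CYP51A1, a sterol demethylase, by -0.97 (SE 0.32) and -0.35. The steroid and sterol reductase gene HSD17B7 was at -0.30 (SE 0.09) as deposited and at 0.23 after GC centring. With DHT, SQLE and CYP51A1 were at -0.54 and -0.44 after GC centring, neither called. The centred list median was -0.15, with 18 of 28 below 0. ABCG1, a sterol exporter gene chosen after its values were seen, differed by 0.66 (SE 0.28) with DHT and 0.63 (SE 0.28) without it.

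Fatty acid synthesis, elongation and desaturation genes had 11 of 18 below 0 with DHT and 15 of 18 without it. FADS1, a desaturase, stood at 2149 with enzalutamide plus DHT and 1820 with VPC-13789 plus DHT, and at 2066 and 1774 without DHT. Its differences were -0.24 (SE 0.06, Wald test, adjusted p = 0.244) and -0.22 (SE 0.06). ACSL1, an acyl-CoA ligase, differed by -0.31 (SE 0.10) and -0.19 (SE 0.10), and the elongase gene ELOVL6 by -0.86 (SE 0.41) and -0.07 (SE 0.41). After GC centring the values with DHT were -0.08 for ACSL1, -0.33 for ELOVL6 and -0.38 for FADS1. The centred list median was 0.01, with 8 of 18 below 0.

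**Figure D3:**
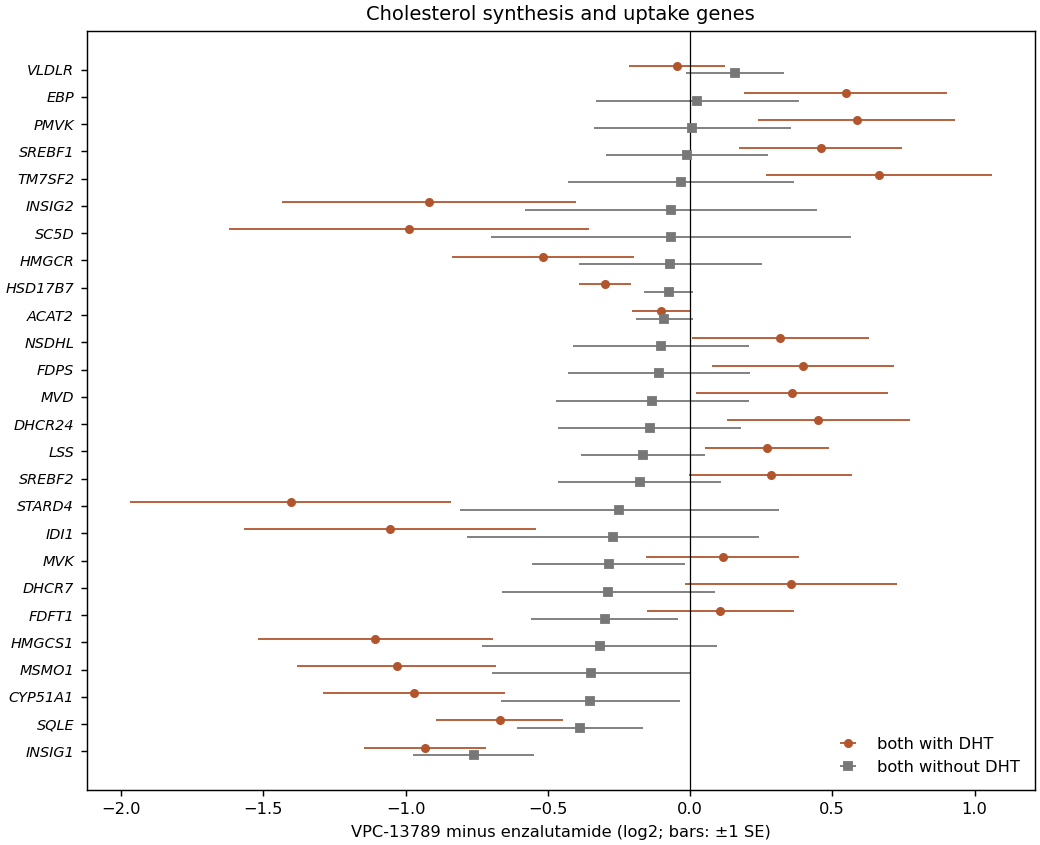
Difference between VPC-13789 and enzalutamide (log2, x axis; bars ±1 SE) for cholesterol synthesis and uptake genes averaging at least 100 normalized counts (y axis), with DHT (brown circles) and without it (grey squares). INSIG1 lay at -0.93 and -0.76, while many other genes had wide bars that reach 0.

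ATF4 amino acid stress genes had 15 of 24 above 0 (median 0.30, 0.13 after GC centring) and, without DHT, 22 of 24 (median 0.13). CHAC1, a glutathione-degrading enzyme gene, differed by 0.99 (SE 0.46) with DHT and 0.37 (SE 0.46) without it, and the secreted glycoprotein gene STC2 by -0.22 (SE 0.11) and 0.11 (SE 0.11). Metallothionein genes had 4 of 5 above 0, MT1F at 0.68 (SE 0.25). Of the polyamine metabolism genes 6 of 10 lay above 0, with the spermine oxidase gene SMOX at 0.77 (SE 0.27). None of the genes named in this paragraph passed the adjusted threshold.

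Across the whole transcriptome the difference with DHT moved with the GC content of the transcript. Over 10777 nuclear genes averaging at least 100, Spearman's rho was 0.832 with GC content and -0.406 with transcript length, given as descriptions since genes share the same 6 libraries. The twentieth of genes poorest in GC (median 35.7%) had a median difference of -0.75, and the richest (65.8%) one of 0.56. Without DHT these medians were 0.05 and 0.02, and rho with GC was -0.089. In the authors' deposited tables, rho with GC was 0.816 for VPC-13789 plus DHT against DHT and -0.322 for enzalutamide plus DHT against DHT. Comparisons without VPC-13789 plus DHT also followed GC content: in the authors' deposited tables rho with GC was also 0.775 for enzalutamide without DHT against vehicle, 0.741 for VPC-13789 without DHT against vehicle and 0.498 for DHT against vehicle. SGK1 has a transcript GC of 41.1%, BAMBI of 51.0% and CHST2 of 58.7%. Why the trend exists was not tested.

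**Figure D4:**
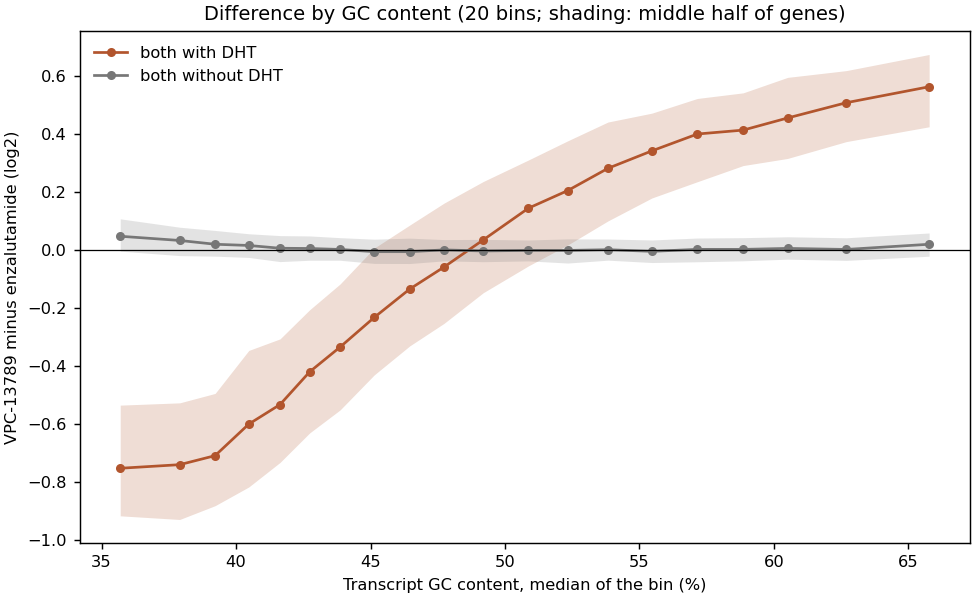
Median difference between VPC-13789 and enzalutamide (log2, y axis) in 20 equal bins of transcript GC content (%, x axis), nuclear genes averaging at least 100 normalized counts; shading spans the quartiles. With both compounds given with DHT the line went from -0.75 to 0.56, and without DHT it stayed between 0.05 and -0.01.

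Subtracting the median of genes of like GC raised the number of called genes from 3 to 736 (2.69% of 27391 genes with a GC value), 466 higher (1.70%) and 270 lower (0.986%). SGK1, CHST2 and BAMBI were among them, at 1.99, 1.09 and -0.63. Only 103 of the 736 had an unadjusted p under 0.05 as deposited, and 520 kept the sign of the deposited difference. Of the 736, 61 were DHT-called genes, where DHT called 1.13% of all genes higher and 0.301% lower. That overlap was not tested. The genes called higher had a median GC of 41.4% and those called lower one of 55.1%, against 48.4% for all nuclear genes averaging at least 100, and median transcript lengths of 3271 and 4817 bases against 3636. FKBP5 was among the genes called higher, at 0.89 (Wald test, adjusted p = 0.00424), and FADS1 (-0.38, adjusted p = 4.13e-07), SDC4 (-0.36) and INSIG1 (-0.80, adjusted p = 0.0109) were among those called lower. Others with large centred values were C15orf61 at 1.29 and EIF3F, a translation initiation factor subunit gene, at 1.24. On the lower side stood ZC3H12A, an RNase gene of inflammation control, at -0.86 and RASSF1, a tumour suppressor gene, at -0.73. Their deposited differences were 0.58, 0.64, -0.41 and -0.16, none of them called. For the contrast with DHT against that without it, centring gave 194 calls (0.708%) where the deposited values gave 1.

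Several large gene families lay mostly to one side of 0. All 13 mitochondrially encoded protein genes lay above 0, between 0.60 and 0.75, with a median of 0.71. MT-CO2, a cytochrome oxidase subunit, was at 0.75 (SE 0.39) and at -0.01 without DHT. Cytosolic ribosomal protein genes had 61 of 81 above 0 (median 0.30), with RPL38 at 0.53 (SE 0.28), RPL22 at -0.28 (SE 0.14) and RPL7L1 at -0.34 (SE 0.16). Members of this list were taken by symbol, which lets in related genes such as the RPL7-like gene RPL7L1. Nuclear-encoded complex I subunits had 30 of 37 above 0 (median 0.30), with NDUFA9 at 0.54 (SE 0.26) and NDUFS1 at -0.38 (SE 0.18), the latter at 0.15 after GC centring. Zinc finger genes named ZNF and a number had 340 of 457 below 0 (median -0.52, -0.15 after centring). Mitosis genes were less one-sided, with 14 of 24 below 0 and 12 of 24 after centring. Their median of -0.44 became -0.01. After centring the medians were 1.02 for the mitochondrially encoded, 0.26 for the ribosomal and 0.28 for the complex I genes. As deposited, 0 members of these 5 lists were called. Members with an unadjusted p under 0.05 numbered 0 of the mitochondrially encoded genes. They numbered 1 higher and 2 lower of the ribosomal and 1 and 1 of the complex I genes. For the ZNF genes they were 11 and 30, and for the mitosis genes 0 and 1. Over all genes the shares were 2.28% higher and 3.21% lower.

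**Figure D5:**
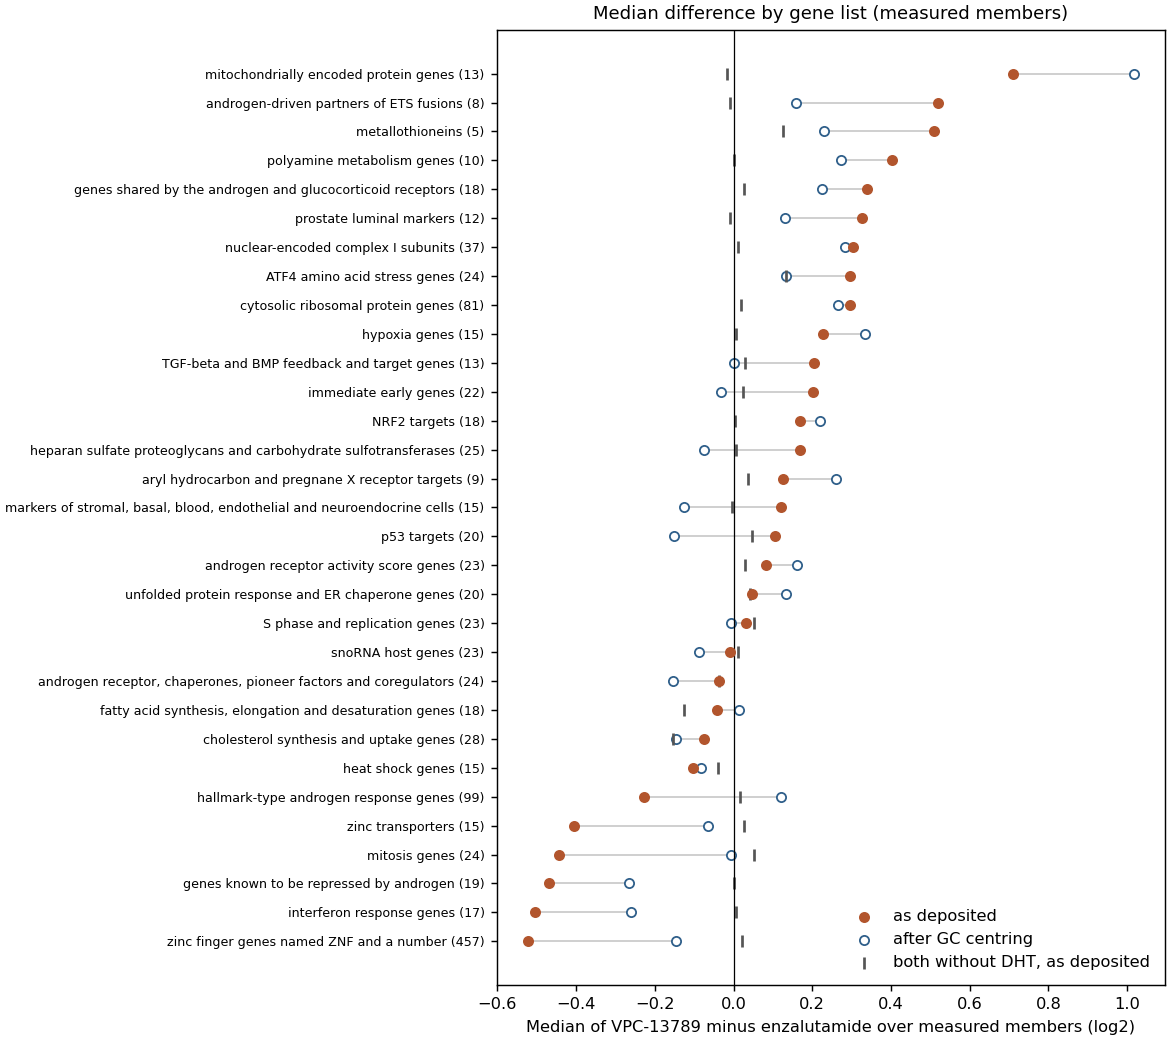
Median difference between VPC-13789 and enzalutamide over the measured members of each gene list (log2, x axis; lists on the y axis with the number of members), with DHT as deposited (filled), after GC centring (open) and without DHT (ticks). Mitochondrially encoded genes lay highest at 0.71 and ZNF genes lowest at -0.52 as deposited, while the medians without DHT stayed between -0.15 and 0.13.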

How the data were processed

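Per the submitters' processing notes, the tools were FastQC for read quality, STAR 2.6.1c as aligner, featureCounts and DESeq2, on GRCh38.p12; the sources used here give neither annotation release nor strandedness. The 5 tables of 27599 rows hold the authors' comparisons. Per the file headers, baseMean is the average normalized count, a signal deposited on a linear scale, and fold changes and their SE are log2 values deposited by the authors. Their Wald statistic is a deposited score, and p-values and adjusted p-values are as deposited by the authors. Averages were identical in all tables.

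After 25 rows with a date for a name were left out, 27574 genes remained. The difference was tested with a two-sided Wald test, SE being the root of the mean of both squared SE, with Benjamini-Hochberg adjustment over all genes and calls under 0.05. Contrasts with and without DHT were compared with the summed squared SE. Group means and dispersions were recovered from averages, fold changes and SE; the SE rebuilt from them lay within 5% of those used for 99.97% of genes averaging at least 100. GC content came from the longest GENCODE transcript per symbol (release 29; 99.3% of genes), in 20 bins. Promoters and their starts came from RefSeq. The Wald step was tested on simulated data.

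The members, lists and tests were chosen with earlier results of these data known. Of 31 lists, the counts printed are descriptions; 26 of 578 entries had no row. Genes named were all called ones, the 10 highest and 10 lowest GC-centred calls averaging at least 100 (some of them), a fixed panel of 12, up to 4 per list by smallest p averaging at least 100 and the 10 strongest DHT rises; ABCG1 was added. A few genes of the panel and lists are not reported here. The plan held edgeR for counts per sample, which the tables do not give. Without strand in the counting, antisense or overlapping genes would share reads. Python 3.11.15, pandas 2.3.3, numpy 2.4.6, scipy 1.17.1 and matplotlib 3.10.9 were used.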

Additional observations from a re-analysis of the deposited data

Results flagged for a closer look

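SGK1 is listed because its contrast between the compounds differed by whether DHT was present. The contrast with DHT exceeded that without DHT by 1.80 on the log2 scale (SE 0.35, Wald test over all genes, adjusted p = 0.00704). It was 1.46 with DHT and -0.33 without it.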

How the results depend on the processing

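The count of 3 called genes was 0 with the SE taken as if no samples were shared, 5 among genes averaging at least 100 (with FOSL2, INSIG1 and NFKBIA added at an adjusted p of 0.0447 each by the Wald test, and CHST2 outside the filter), and 736, 743 and 691 after centring by GC in 20 bins, in 10 bins, or by GC and then length; 566 genes were shared between the first and last of these. The count for the contrast with DHT against that without it went from 1 to 194 after GC centring. GC centring moved the median of the hallmark-type androgen list to 0.12, of the ETS fusion partners to 0.16 and of the mitosis genes to -0.0054, and keeping genes averaging at least 100 moved that of the interferon list from -0.50 to 0.21. RHOU changed sign to 0.0063 with 10 bins and 0.011 with length centring, HSD17B7 to 0.23, 0.18 and 0.23 under the 3 centrings, and NDUFS1 to 0.15, 0.10 and 0.31. The cause was not tested. Filters at 10 for strata and lists were chosen after seeing the data. No paired analysis was possible because the tables hold no values per sample; for the same reason leaving out a replicate and another normalization were not run, and 1 culture deciding a value could not be seen. Depth limits low genes such as CHST2 and STEAP4, whose SE were 0.30 and 0.65.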
